A study of Mus musculus with 2 samples.

Results

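The clustered protocadherin genes were examined in single-cell ATAC-seq libraries of hematopoietic stem cells (HSCs), an assay in which a transposase cuts accessible DNA and each cut fragment carries the barcode of its cell. The members were all annotated mouse genes on chromosome 18 whose symbols start with Pcdha, Pcdhb or Pcdhg. These were 58 of the 53843 gene records on chromosomes 1 to 19 and X, with 14 in the Pcdha group, 22 in the Pcdhb group and 22 in the Pcdhg group. The rule used names and position and no measured value, but the members were chosen with earlier results of these data known. There were 2 libraries, 1 of HSCs from 10-week-old mice (young HSCs) and 1 of HSCs from 20-month-old mice (aged HSCs). All mice were female C57BL/6 animals with no treatment given in the sources used here, and the cells were sorted from bone marrow by surface markers (negative for lineage markers, CD34, CD48, Flt3 and the IL-7 receptor, positive for Sca-1, c-Kit and CD150). With 1 library per age, no test between the ages was possible, so no p-values are given. Intervals of levels, ratios and shares cover counting error only, and those of medians show the spread over members. The number of mice behind each library is not given in the sources used here, and age cannot be told apart from any other difference between the libraries.

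Protocadherins are cadherin-like adhesion proteins of the cell surface. The clustered genes are known from neurons, in which each cell uses a small set of them as a surface label that lets its own branches recognise each other. Every Pcdha and Pcdhg gene has its own promoter and its own large variable exon, which is spliced to constant exons shared by its group, whereas Pcdhb genes consist of a variable exon without shared constant exons. The alternate genes are chosen by chance in a cell, through promoter methylation, the insulator protein CTCF, cohesin and distant enhancers, whereas the C-type genes (Pcdhac1, Pcdhac2, Pcdhgc3, Pcdhgc4 and Pcdhgc5) are used more uniformly. Known enhancers lie among and downstream of the Pcdha constant exons and downstream of Pcdhg.

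In the mm10 build, the members lay in a row on the plus strand from position 36930184 to 37841873 of chromosome 18, a span of 912 kb. Pcdha variable exons started at 36930184 and Pcdha constant exons at 37156155, Pcdhb genes extended from 37264938 to 37524479, and Pcdhg genes from 37661793 to the end of the span. Accessibility of a member was the number of unique fragments with at least 1 end within 500 bp of its transcription start site (TSS), given as FPM, the fragments per 1000000 unique nuclear fragments of the used cells. The used cells, 4887 young and 3405 aged, gave 50065741 and 38659456 such fragments, so that 1 fragment was worth 0.01997 FPM in young and 0.0259 FPM in aged HSCs. Young HSCs had a median of 9890 fragments per cell and aged HSCs 11020, and 26 used barcodes occurred in both. No windows overlapped, and 2 of them held the start of another annotated gene. The TSS windows of 10 HSC marker genes had a summed level of 112 FPM in young and 111 FPM in aged HSCs.

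The member windows were accessible at low to middling levels in HSCs. Every member had fragments in both libraries, 52 of 58 reached 20 fragments in both libraries together, and 52 lay above the median of all TSS windows. The member windows ranged from 0.108 FPM (mean of both libraries) to 19.7 FPM, and from the 35.3rd to the 88.0th percentile of the 53808 TSS windows. Pcdhg windows had the higher levels, with a median of 2.14 FPM, against 0.705 FPM for Pcdha and 0.736 FPM for Pcdhb. The signal was focal. Fragment density in the window was at least 2 times that of the stretches 1 to 3 kb away at 56 of 58 members, with a median of 9.91 times. This share was not counted over all TSS windows, so it is not shown to be particular to the members. At members with fewer than 20 fragments it rests on few counts. Windows of 1108 olfactory receptor genes, another family chosen by chance in single neurons, had a median level of 0.0458 FPM.

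**Figure D1:**
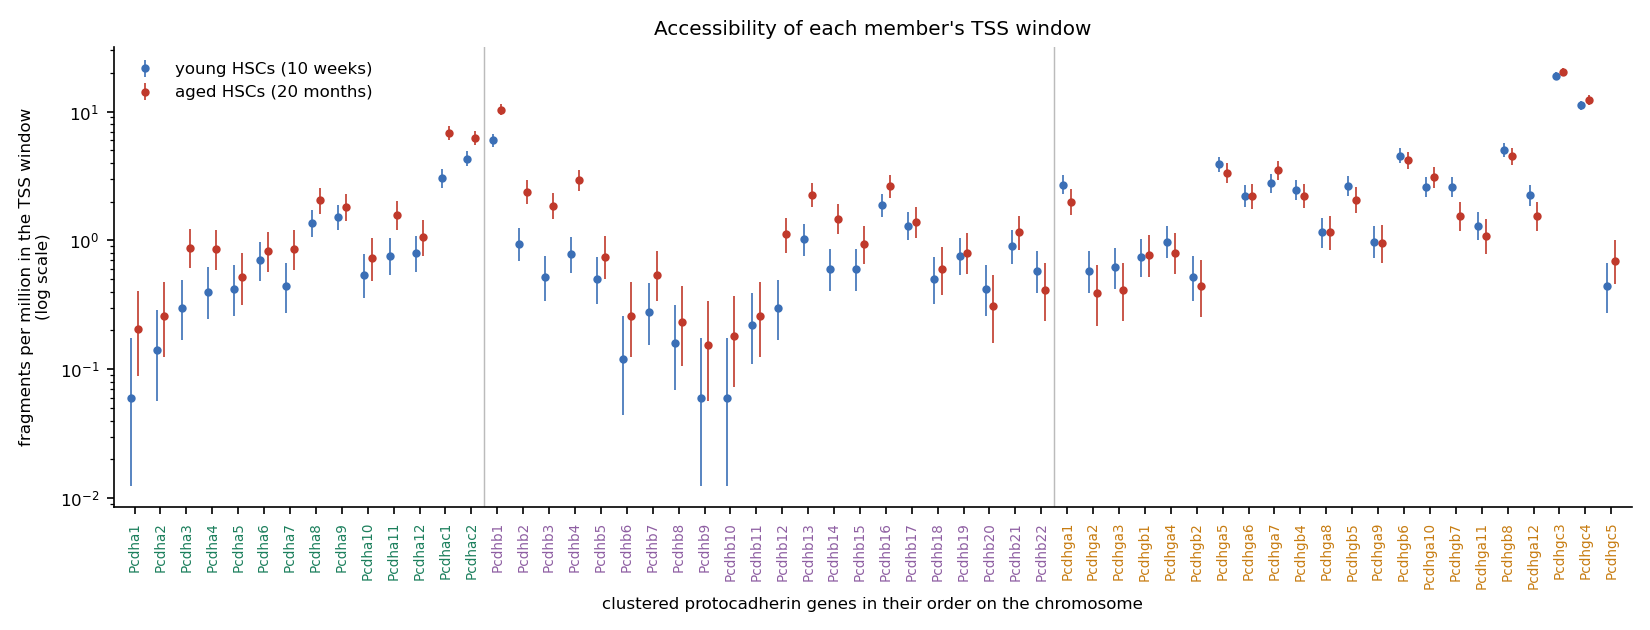
Accessibility of each member's TSS window in FPM (log scale), with members in their order on the chromosome. Points are the young and the aged library and bars are exact Poisson 95% intervals of the count. Pcdhgc3 and Pcdhgc4 have the highest levels, and aged points lie above young points throughout Pcdha and at the start of Pcdhb.

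Pcdha and Pcdhb windows were more accessible in aged HSCs and Pcdhg windows were not. The 14 Pcdha windows together had 740 fragments in young and 956 in aged HSCs, or 14.8 and 24.7 FPM, a 1.67-fold higher level with age (interval 1.52 to 1.84). The 22 Pcdhb windows together had 926 and 1274 fragments, or 18.5 and 32.95 FPM, a 1.78-fold higher level (1.64 to 1.94). The 22 Pcdhg windows had 3569 and 2694 fragments, or 71.3 and 69.7 FPM, a ratio of 0.978 (0.930 to 1.03). The intervals of Pcdha and Pcdhb overlapped each other and lay apart from that of Pcdhg, and whether the groups differ in their response to age was not tested. Over all 58 members the level was 1.22-fold higher in aged HSCs (1.17 to 1.27).

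Of the 52 members with at least 20 fragments, 16 (30.8%) were past 1.5-fold higher in aged HSCs and 1 (1.92%) was past 1.5-fold lower. The background over all TSS windows with that minimum was 7.63% higher and 5.19% lower, with 37.1% above a log2 ratio of 0. Over protein-coding genes with that minimum it was 4.9% higher and 2.68% lower, with 30.2% above 0, and over all windows without a minimum 18.4% higher and 13.7% lower, with 48.5% above 0. Among windows of 20 to 200 fragments, where most members lay, it was 17.4% higher and 13.7% lower. By group, 6 of 12 Pcdha members and 9 of 18 Pcdhb members were past 1.5-fold higher and 0 lower, a share of 50% in each group. Among the 22 Pcdhg members, 1 was past 1.5-fold higher and 1 lower, 4.55% in each direction. A call rests on the ratio and not on its interval. Among the members called higher, the intervals of Pcdhb7 (-0.09 to 2.05), Pcdhb15 (-0.10 to 1.39) and Pcdhgc5 (-0.20 to 1.55) included 0. The median log2 ratio (aged over young, with a pseudocount of 1 fragment) was 0.71 for Pcdha (0.31 to 1.17), 0.70 for Pcdhb (0.26 to 1.28) and -0.15 for Pcdhg (-0.35 to 0.08). Over all windows of 20 to 200 fragments it was 0.03. The intervals of the group medians show the spread over members and not counting error.

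The ratio varied with the order of the genes along the chromosome. In that order, the first member with a ratio below 0 was Pcdhb20, after 33 members with a ratio above 0, of which 6 had fewer than 20 fragments. From Pcdhb20 on, 17 of 25 members were below 0. This boundary was set by the ratios themselves, so both counts are descriptions. By group, a ratio above 0 was found at 14 of 14 Pcdha, 20 of 22 Pcdhb and 7 of 22 Pcdhg members, and at 52.1% of all windows of 20 to 200 fragments and 37.1% of all windows with at least 20. The count for Pcdhg, which holds members below and above 200 fragments, is near the second of these shares and under the first. Spearman's rho between the log2 ratio and the order was -0.68 over the 58 members and -0.69 over the 22 Pcdhb members. These points share both libraries and neighbouring members share a chromosome region, so rho is a description. Within Pcdhb, the 16 members from Pcdhb1 to Pcdhb16 were together 2.01-fold higher in aged HSCs (1.83 to 2.22), and the 6 members from Pcdhb17 to Pcdhb22 had a ratio of 1.05 (0.859 to 1.28). This division of Pcdhb was also chosen after its values were seen.

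**Figure D2:**
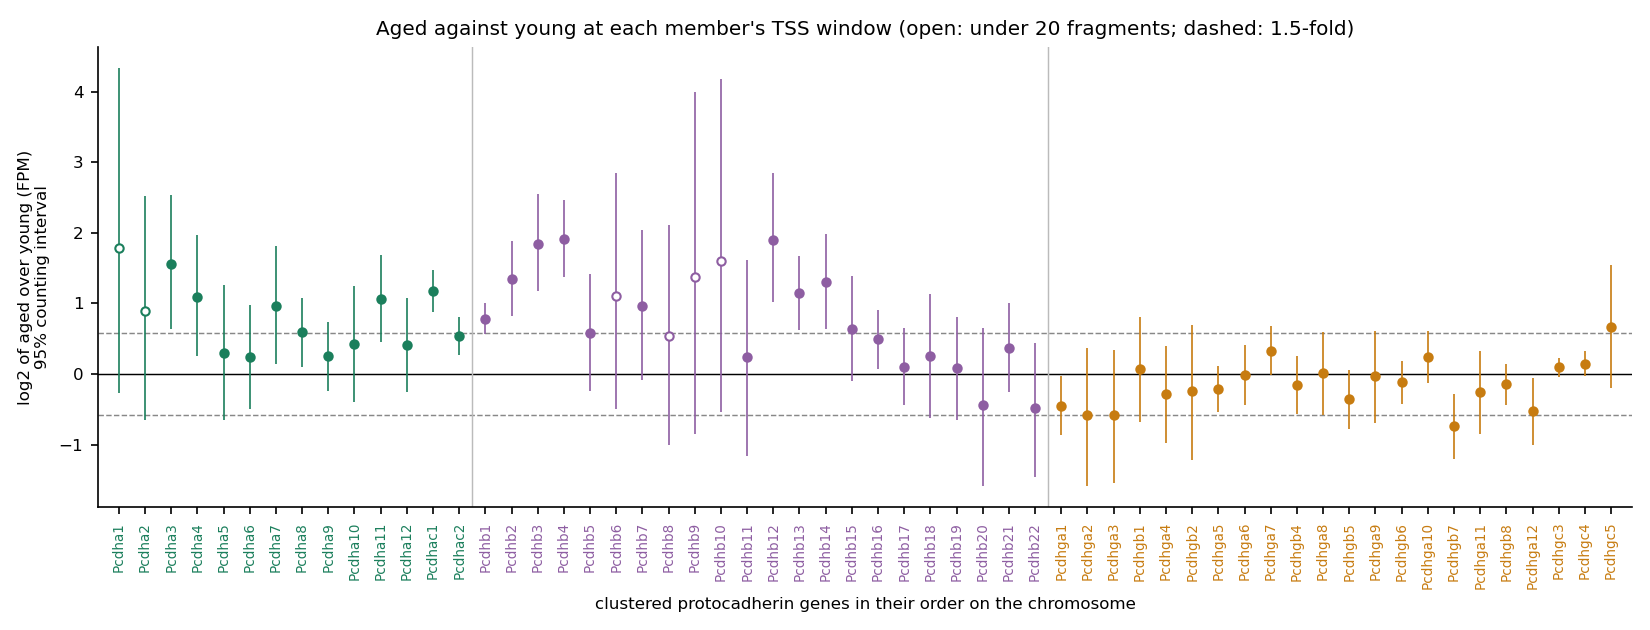
Log2 ratio of aged over young accessibility at each member's TSS window, in chromosome order, with exact binomial 95% intervals. Open circles are members with fewer than 20 fragments, and dashed lines mark 1.5-fold. Points carry no pseudocount. All 14 Pcdha members lie above 0, and Pcdhb members lie between 1.91 and -0.48 with the values below 0 at the end of their group. Of 22 Pcdhg members, 15 lie below 0. Of all TSS windows, 37.1% of those with at least 20 fragments and 52.1% of those with 20 to 200 lie above 0.

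Within Pcdha, the C-type genes had the highest levels. Pcdhac1 had 152 fragments (3.04 FPM) in young and 265 (6.85 FPM) in aged HSCs, a log2 ratio of 1.17 (0.88 to 1.47). Pcdhac2 had 216 (4.31 FPM) and 242 (6.26 FPM), a log2 ratio of 0.54 (0.27 to 0.81), so the interval of Pcdhac1 lay above that of Pcdhac2. Among the alternate genes, Pcdha8 was the most accessible, with 68 and 79 fragments and a log2 ratio of 0.59 (0.10 to 1.08). The largest ratio of the group with at least 20 fragments was that of Pcdha3, at 15 and 34 fragments and 1.502 (0.64 to 2.54). The alternate members as a whole, without the C-type genes, had 372 fragments in young and 449 in aged HSCs, a 1.56-fold higher level (1.36 to 1.80). Their lowest ratio was 0.25. Of their 12 intervals, 5 lay above 0, 0 lay below 0 and the others included 0. The share of all TSS windows with an interval above 0 was not counted. The higher level with age was thus found in the alternate and in the C-type genes of Pcdha alike in direction.

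Pcdhb held the largest differences of the cluster. Pcdhb1, which stands apart at the start of its group, had the highest level, with 301 fragments (6.01 FPM) in young and 399 (10.3 FPM) in aged HSCs, a log2 ratio of 0.78 (0.56 to 1.0003). Pcdhb4 had 39 and 113 fragments, a log2 ratio of 1.88 (1.37 to 2.47). Pcdhb12 had 15 and 43 fragments and a ratio of 1.83 (1.02 to 2.85), and Pcdhb3 had 26 and 72 and a ratio of 1.81 (1.18 to 2.55). Pcdhb2 had 47 and 92 fragments and a ratio of 1.33 (0.82 to 1.88). Without the pseudocount, these 4 genes were between 2.53-fold and 3.75-fold higher in the aged library. In the middle of the group, 4 members (Pcdhb6, Pcdhb8, Pcdhb9 and Pcdhb10) had fewer than 20 fragments, and their intervals all included 0. Pcdhb16, next to Pcdhb1 in level within the group, had 94 and 102 fragments and a ratio of 0.49 (0.07 to 0.91). At the far end, Pcdhb22 had 29 and 16 fragments and a ratio of -0.45 (-1.46 to 0.44).

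Pcdhg held most of the fragments in the member windows, 68.2% in young and 54.7% in aged HSCs, and 2 C-type genes held much of these. Pcdhgc3 had 954 fragments (19.1 FPM) in young and 787 (20.4 FPM) in aged HSCs, a log2 ratio of 0.10 (-0.04 to 0.23). Pcdhgc4 had 559 (11.2 FPM) and 477 (12.3 FPM), a ratio of 0.14 (-0.04 to 0.32). For both, the interval excluded a difference as large as 1.5-fold. Pcdhgc5 had only 22 and 27 fragments and a ratio of 0.66 (-0.20 to 1.55), and its window was hardly denser than its surroundings, at 1.14 times. The 5 C-type genes therefore spanned log2 ratios from 0.10 to 1.17, and the interval lay above 0 for 2 of them, Pcdhac1 and Pcdhac2.

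The alternate Pcdhg genes had a slightly lower summed level in aged HSCs. The 19 members together had 2034 fragments in young and 1403 in aged HSCs, a ratio of 0.893 (0.834 to 0.957), and 15 of the 19 had a ratio below 0. A ratio above 0 was found at 37.1% of all TSS windows with at least 20 fragments and 30.2% of those of protein-coding genes. Most of these windows thus did not lie above 0 either. Among windows of 20 to 200 fragments the share above 0 was 52.1%. The 19 members have counts on both sides of 200 fragments. Pcdhgb7 had 130 and 60 fragments, a log2 ratio of -0.73 (-1.21 to -0.29), and was the member past 1.5-fold lower. Pcdhga12 had 112 and 60 fragments and a ratio of -0.52 (-1.005 to -0.06). Pcdhga3 had 31 and 16 and a ratio of -0.54 (-1.55 to 0.33), and Pcdhga2 had 29 and 15 and a ratio of -0.53 (-1.58 to 0.37). Pcdhgb8, annotated as a polymorphic pseudogene, was the most accessible alternate member, with 251 and 175 fragments and a ratio of -0.14 (-0.43 to 0.14). With the libraries scaled by the median of ratios over TSS windows, every log2 ratio is 0.08 higher, against a log2 ratio of -0.16 (-0.26 to -0.06) for the sum of these 19 members.

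The fragments of a member came from many cells. The 265 fragments of Pcdhac1 in aged HSCs were spread over 250 cells, and the 113 of Pcdhb4 over 107 cells. After each cell was thinned to 5000 fragments, which left out 229 young and 254 aged cells with fewer, a fragment in at least 1 Pcdha window was found in 6.78% of young (6.08 to 7.54) and 11.4% of aged HSCs (10.3 to 12.5). For Pcdhb the shares were 8.54% (7.76 to 9.38) and 14.8% (13.6 to 16.1), and for Pcdhg 29.8% (28.5 to 31.1) and 28.0% (26.4 to 29.6). Without thinning, the shares were 13.2% and 23.3% for Pcdha, 16.5% and 29.3% for Pcdhb, and 49.8% and 51.4% for Pcdhg. Intervals are exact binomial ones over cells of 1 library each. A cell seldom showed more than a few members. Of thinned cells, 59.6% of young and 53.7% of aged HSCs had no member with a fragment, 31.0% and 34.4% had 1 member, and 8.20% and 9.84% had 2 members. The most members found in a thinned cell were 4 in young and 5 in aged HSCs. A cell without a fragment may still have an accessible promoter, since a promoter on a pair of chromosomes can give only a few fragments.

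**Figure D3:**
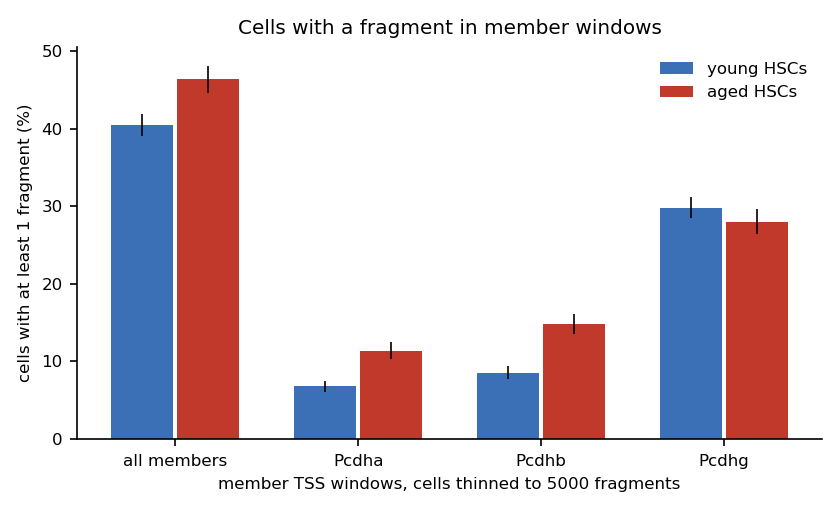
Share of cells (%) with at least 1 fragment in the windows of all members or of each group, in young and aged HSCs, each cell thinned to 5000 fragments. Bars are shares and lines exact binomial 95% intervals. Shares are higher in aged HSCs for Pcdha (6.78% and 11.4%) and Pcdhb (8.54% and 14.8%), and 29.8% and 28.0% for Pcdhg.

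The distribution of fragment ends around the TSS was described for each group. In all groups the fragment ends were densest just upstream of the TSS. At the alternate Pcdha genes, a further maximum lay 500 to 600 bp downstream, inside the variable exon and mostly outside the window. From 400 to 800 bp downstream, the 12 alternate Pcdha genes had 167 fragments in young and 212 in aged HSCs, a log2 ratio of 0.72 (0.42 to 1.02). In the 200 bp upstream of the TSS they had 231 and 273, a ratio of 0.61 (0.36 to 0.87). Both intervals lay above 0, and the difference between the stretches was not tested. Pcdhb genes had 446 and 681 fragments in the 200 bp upstream, a ratio of 0.98 (0.81 to 1.16), and alternate Pcdhg genes had 1326 and 837, a ratio of -0.29 (-0.42 to -0.16). In the downstream stretch, Pcdhb genes had 165 and 192 fragments, a ratio of 0.59 (0.28 to 0.90), and alternate Pcdhg genes had 342 and 294, a ratio of 0.15 (-0.08 to 0.38), on the other side of 0 from the stretch upstream of the TSS. These stretches were chosen after the profiles were seen.

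**Figure D4:**
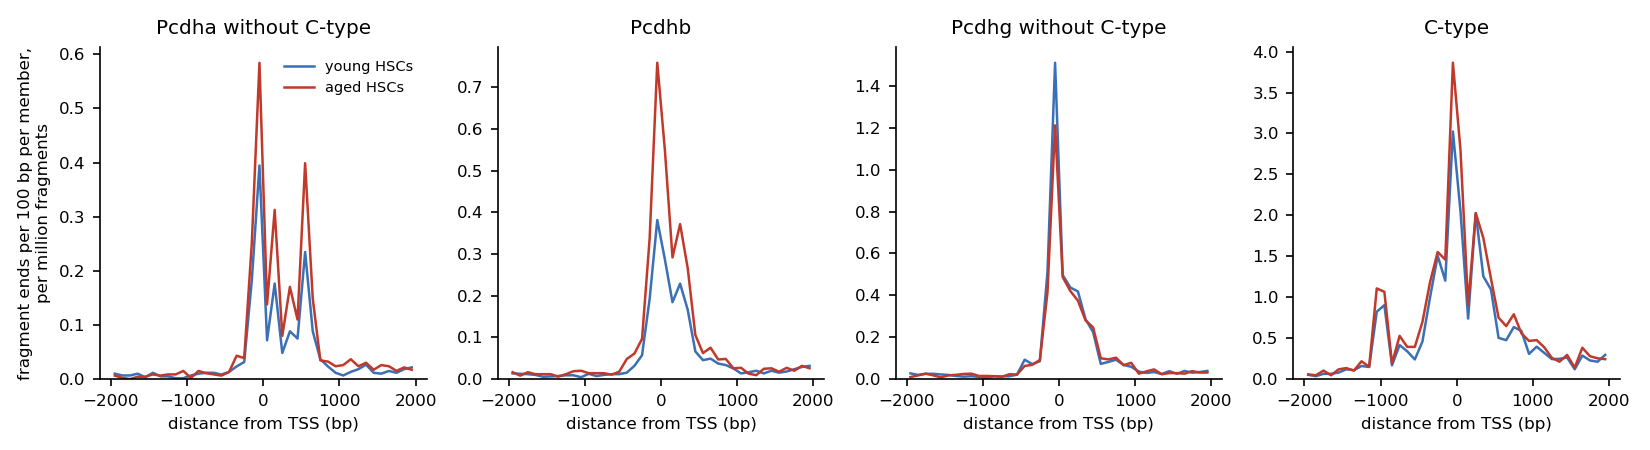
Fragment ends per 100 bp and per member, scaled to library depth as for FPM, against the distance from the TSS (bp), for alternate Pcdha, Pcdhb, alternate Pcdhg and C-type genes in young and aged HSCs. The aged line lies above the young line at the maxima of Pcdha and Pcdhb and below it at the maximum of alternate Pcdhg genes, and Pcdha shows a further maximum downstream of the TSS.

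The member windows also differed in sequence. The windows had a median GC content of 44.9%, against 47.5% for all TSS windows, but more CpG dinucleotides, with a median ratio of observed to expected CpG of 0.564 against 0.266. This ratio was 0.682 in Pcdha, 0.378 in Pcdhb and 0.612 in Pcdhg. A loose form of the core of the CTCF motif, searched on both strands, was found in 12 of 14 Pcdha windows, 2 of 22 Pcdhb windows and 8 of 22 Pcdhg windows, and in 18.6% of all TSS windows. A stricter form with 1 more fixed base, each match of which is also a match of the loose form, was found only in the Pcdhac2 window among the members, and in 6.56% of all windows. From 400 to 800 bp downstream of the TSS, the loose core occurred in 8 of the 12 alternate Pcdha genes, each time on the strand of the gene, at starts between 456 and 581 bp. The same stretch held it in 6.89% of all genes. The stricter form occurred there in 7 of these 12 genes, in 0 Pcdhb and 0 Pcdhg genes, and in 2.45% of all genes. Both forms were written from general knowledge of the CTCF consensus and not taken from a motif collection, so these shares depend on that choice and a match is not a binding site. The median log2 ratio was 0.36 for the 22 members with the loose core in the window and 0.29 for the 36 without. Variable exons of neighbouring members are alike, and 13 windows had over 10% of their 50-mers elsewhere in the cluster, at most 24.7%. Values of members with such stretches are less certain, since short reads cannot always be assigned to 1 of them, and 10 of the 13 windows are in Pcdha, 1 in Pcdhb and 2 in Pcdhg.

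The age difference was also described over whole stretches of the cluster, between promoters included. In bins of 1 kb, the Pcdha variable part had 0.167 FPM per kb in young and 0.262 in aged HSCs, a log2 ratio of 0.65 (0.56 to 0.74), and its constant part 0.125 and 0.243, a ratio of 0.96 (0.69 to 1.22). The Pcdhb stretch had 0.133 and 0.218 FPM per kb, a ratio of 0.72 (0.63 to 0.81). The Pcdhg variable part had 0.729 and 0.751, a ratio of 0.04 (-0.01 to 0.10). The 50 kb upstream of Pcdha1 had 0.0439 and 0.0367 FPM per kb, a ratio of -0.26 (-0.71 to 0.18), and the gap between Pcdhb and Pcdhg had a ratio of 0.01 (-0.08 to 0.10). The gap between Pcdha and Pcdhb had 0.208 and 0.288 FPM per kb, a ratio of 0.47 (0.33 to 0.61). Bins were assigned to stretches by their midpoint, so this gap includes the bin that holds the Pcdhb1 TSS (133 and 212 fragments). The gap between Pcdhb and Pcdhg likewise includes the bin that holds the Pcdhga1 TSS (130 and 68 fragments). The Pcdhg constant part, unlike the variable part, was also higher in aged HSCs, with 1.97 and 2.42 FPM per kb, a ratio of 0.29 (0.19 to 0.39), and the 150 kb downstream of the cluster had a ratio of 0.08 (0.05 to 0.12). With bins that touch a member window left out, the ratio was 0.52 (0.38 to 0.66) in the Pcdha variable part and 0.63 (0.48 to 0.78) in Pcdhb, against 0.13 (0.03 to 0.24) in the Pcdhg variable part. The Pcdha bins left in include the bin from 37142001, next to the Pcdhac2 window (261 and 258 fragments). In Pcdha and Pcdhb the higher level in aged HSCs was therefore not limited to the member TSS windows. In-peak fragments were 82.1% of the fragments of the used cells in young and 80.1% in aged HSCs. The part of this difference in the ratios outside member windows was not tested.

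Of the bins with at least 20 fragments between Pcdha1 and the end of Pcdhg, 52 of 163 were past 1.5-fold higher in aged HSCs and 9 lower. Over the genome, 15.7% of such bins were higher and 11.3% lower, and 52% had a ratio above 0. Among bins of 20 to 200 fragments these shares were 17.8%, 13.2% and 53.2%. By stretch, 16 of 29 bins were higher in the Pcdha variable part and 0 lower, 19 of 32 were higher and 1 lower in Pcdhb, 7 of 17 were higher and 1 lower in the Pcdhg constant part, and 4 of 64 were higher and 6 lower in the Pcdhg variable part. A bin was called raised when its mean level of both libraries was at least 5 times that of the median bin of the region. There were 228 such bins.

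Some of the largest differences lay in raised bins without a member TSS. The bin from 37283001 to 37284000 had 16 fragments in young and 81 in aged HSCs, a log2 ratio of 2.71 (1.93 to 3.59). It lies 11.3 kb upstream of the Pcdhb2 TSS and holds no annotated TSS. Its ratio was the highest of the raised bins, but it was raised only through the aged library. Its level was 0.320 FPM in young and 2.10 FPM in aged HSCs, against a threshold of 0.379 FPM for the mean of both. The bin from 37149001 to 37150000, downstream of the Pcdhac2 TSS, had 47 and 93 fragments, a ratio of 1.36 (0.84 to 1.90). Within the Pcdha constant part, the bins from 37172001 and from 37178001 had 31 and 72 fragments and 45 and 88 fragments, with ratios of 1.59 (0.96 to 2.25) and 1.34 (0.81 to 1.89). Both hold the start of a non-coding or predicted gene, Gm38097 and Gm10544.

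The most accessible element between Pcdha and Pcdhb differed less. The bin from 37218001 to 37219000, in the interval that holds a known enhancer, had 381 fragments in young and 326 in aged HSCs, a log2 ratio of 0.15 (-0.07 to 0.37). The bin before it had 107 and 109, a ratio of 0.40 (0.00 to 0.80). No coordinates of the named enhancers were used, so no bin is equated with one. At the Pcdhg end, neighbouring elements went in opposite directions. The bins from 37835001 and 37836001, in the Pcdhg constant part, had 360 and 433 fragments and 161 and 228 fragments, with ratios of 0.64 (0.43 to 0.85) and 0.88 (0.58 to 1.18). The bin from 37841001, which spans the end of Pcdhg, and the next bin, just past that end, had 213 and 86 fragments and 171 and 73 fragments, with ratios of -0.94 (-1.31 to -0.57) and -0.86 (-1.27 to -0.45).

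**Figure D5:**
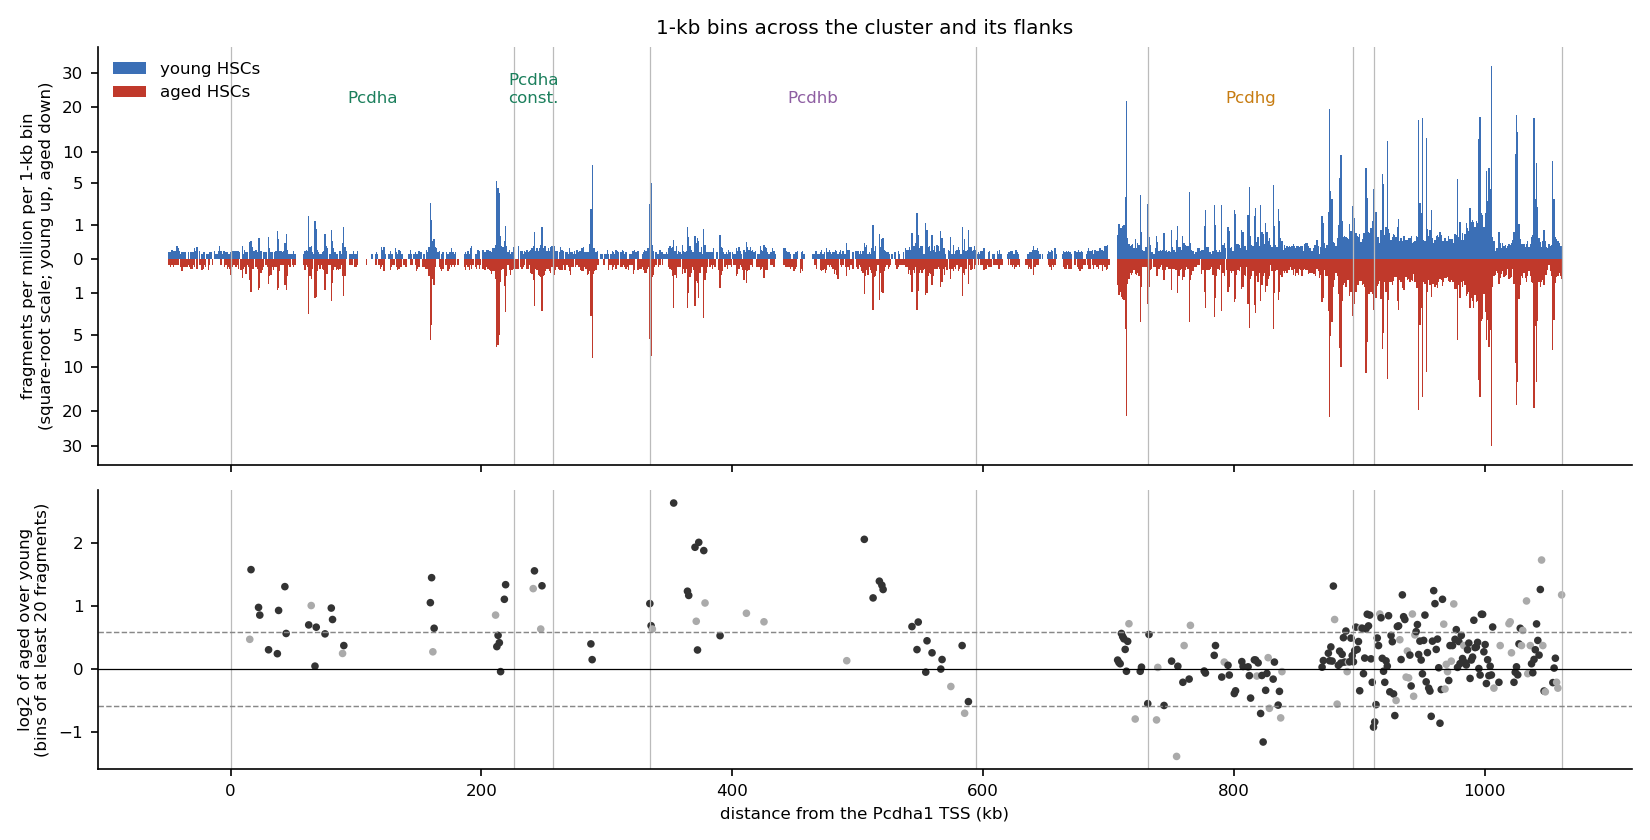
Accessibility (FPM) of 1-kb bins across the cluster and its flanks against the distance from the Pcdha1 TSS (kb), young upward and aged downward on a square-root scale, and below it the log2 ratio of bins with at least 20 fragments (dark points are raised bins, dashed lines mark 1.5-fold). Vertical lines bound the stretches named in the text. Ratios lie mostly above 0 through Pcdha and most of Pcdhb, with the highest at 2.64 (with a pseudocount of 1 fragment), and on both sides of 0 through Pcdhg.

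Of the 9 other protein-coding genes in the binned region, 7 had at least 20 fragments, of which 1 was past 1.5-fold higher and 0 lower, against a background of 7.63% and 5.19%. That gene, Gm42416, starts inside the Pcdha4 window and shares its fragments. Taf7, between Pcdhb and Pcdhg, had 1134 and 848 fragments in its TSS window, a log2 ratio of -0.05 (-0.18 to 0.08). Diaph1 and Hdac3, downstream of Pcdhg, had ratios of -0.10 (-0.21 to 0.01) and -0.01 (-0.15 to 0.13). The 12 non-clustered protocadherin genes, which lie elsewhere in the genome, had 71.9 FPM in young and 88.8 FPM in aged HSCs, a 1.23-fold higher level (1.18 to 1.29). Of these, 5 (41.7%) were past 1.5-fold higher and 0 lower, against 7.63% and 5.19% of all TSS windows with at least 20 fragments and 17.4% and 13.7% of those with 20 to 200, among them Pcdh15 (40 and 68 fragments, log2 ratio 1.12) and Pcdh9 (197 and 302 fragments, 0.99). The olfactory receptor windows had a ratio of 1.07 (1.03 to 1.11).

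The promoters of known regulators of the cluster were compared in the same way. Of 25 genes (CTCF, cohesin and its partners, DNA and histone methylation enzymes), 21 had at least 20 fragments, of which 1 was past 1.5-fold higher, at 20 fragments (Dnmt1, 9 and 11 fragments), and 0 lower. Their summed level was 408 FPM in young and 366 FPM in aged HSCs, a ratio of 0.899 (0.880 to 0.918). These values stand against a background that also lay below 0, since all TSS windows with at least 20 fragments had a median log2 ratio of -0.08, with 37.1% above 0, 7.63% past 1.5-fold higher and 5.19% lower. Scaling to fragments in all TSS windows makes every log2 ratio 0.09 higher. Ctcf, the insulator gene, had 1666 and 1071 fragments, a log2 ratio of -0.26 (-0.38 to -0.15). Rad21, a cohesin subunit, had 1308 and 875, a ratio of -0.21 (-0.33 to -0.08), and Smchd1, a chromatin protein that acts on this cluster, had 1665 and 1146, a ratio of -0.17 (-0.28 to -0.06). Of the 25 genes, 9 had an interval below 0 and 0 had an interval above 0. Intervals narrow as fragments rise, and the share of all TSS windows with such intervals was not counted. These counts thus have no background. The interval included 0 at other genes, such as Smc1a (-0.04, -0.17 to 0.09) and Nipbl (-0.03, -0.16 to 0.10). The annotated start of a gene need not be its main promoter, and Dnmt1, Trim28 (4 and 4 fragments) and Stag1 (13 and 3 fragments) had low counts.

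Markers of other cell types were compared as the sort could leave other cells in. The summed level in the young and the aged library was 50.8 and 50.8 FPM over 8 neural or glial markers, 20.7 and 23.4 FPM over 6 stromal, 41.5 and 45.1 FPM over 6 endothelial, 14.2 and 14.7 FPM over 6 B cell, 2.92 and 2.15 FPM over 6 T or NK cell, 2.94 and 3.001 FPM over 6 granulocyte or monocyte, 11.4 and 10.7 FPM over 6 erythroid, and 73.2 and 64.5 FPM over 6 megakaryocyte markers. Fragments shorter than the DNA of a nucleosome made up 53.2% and 47.3% of fragments at Pcdha windows, 62.2% and 54.0% at Pcdhb and 58.2% and 54.2% at Pcdhg, and 59.8% and 55.02% in the libraries as a whole, and 67.9% and 64.5% at all TSS windows. The part of other cell types or of fragment length in the age difference was not tested.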

How the data were processed

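Single-cell ATAC-seq of sorted HSCs was analysed in 2 libraries, 1 per age, grouped by the sample labels. The authors prepared libraries with a droplet kit, and used Cell Ranger ATAC (mm10) for alignment, for collapsing duplicates, for correcting cut positions, and for calling peaks and cells in each library. The deposited files hold counts: unique fragments with their barcodes, and counts per barcode with no normalization. From these, barcodes called as cells with 3000 to 20000 in-peak fragments were used here (4887 of 5028 young and 3405 of 3694 aged). Other limits of the study were not applied and no doublets were called. Deduplicated fragments are treated as single observations, and duplicates were 14.9% and 12.6% of read pairs.

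Gene starts came from GENCODE M21, which is of the same build as mm10. Of 2 records named Pcdha11, the earlier is called Pcdha10 here, as in RefSeq. A fragment counted once in a window if at least 1 end lay in it, and once in each bin. Values were scaled to all nuclear fragments of the used cells (FPM). Ratios of single members, and the calls of members and bins past 1.5-fold, carry a pseudocount of 1 fragment. Sums, the printed ratios of single bins and stretches, and intervals of levels, ratios and shares carry none. Intervals are at 95%. They are exact Poisson for levels and exact binomial for ratios and shares, and these cover counting error only. Those of medians are order-statistic intervals, which show the spread over members, and members are not replicates. A call is a ratio past 1.5-fold with at least 20 fragments in both libraries together. Named members were the C-type genes, the 3 most accessible of each group and the 5 highest and 5 lowest ratios. Bins reached 50 kb upstream and 150 kb downstream. Counting and ratios were tested on simulated data. The members and lists were chosen with earlier results of these data known. Python 3.11.15, numpy 2.4.6, pandas 2.3.3 and scipy 1.17.1 were used. Alternatives covered windows, scaling, cells, fragment length, background, pseudocount and minimum. No sequences of the windows are shown.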

Additional observations from a re-analysis of the deposited data

Results flagged for a closer look

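Barcodes that were not called as cells but had 3000 to 20000 in-peak fragments were outside the main comparison. They were counted with the used cells only in an alternative setting that took all barcodes within these limits. In the young library they had 60 fragments in member windows, or 71.6 FPM of their own fragments (54.7 to 92.2). In the aged library they had 117, or 76.5 FPM (63.3 to 91.7). The used cells had 105 FPM in young and 127 FPM in aged HSCs. These values are given because the main comparison leaves such barcodes out, and barcodes of this depth carry fragments in any large set of windows. In the aged library 34 of these fragments lay in Pcdhb windows (22.2 FPM, 15.4 to 31.1), and in the young library 5 did (5.97 FPM, 1.94 to 13.9).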

How the results depend on the processing

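The summed ratio of Pcdha and Pcdhb windows stayed within its counting interval under each of the 12 alternatives. All results given here are log2 ratios of aged over young unless stated. Scaling to fragments in all TSS windows raised every ratio by 0.09 and gave 0.38 for all members, 0.059 for Pcdhg windows (against -0.03, so the direction for Pcdhg depends on it), 0.74 for the Pcdha variable part, 0.13 for the Pcdhg variable part and 0.17 for the downstream flank. The median of ratios gave 0.37 for all members and 0.0498 for Pcdhg windows, and scaling to in-peak fragments gave 0.12 for the downstream flank. With short fragments only, the gap from Pcdha to Pcdhb had 0.30, the Pcdhb stretch 0.85 and the upstream flank -0.92. With bins of 2 kb that gap had 0.31 and there were 127 raised bins, as bins are fewer. The count of members past 1.5-fold lower was 2 with windows of 250 bp, 3 with all called cells, 5 with short fragments only and 2 with the density 1 to 3 kb away subtracted, against 1. The count past 1.5-fold higher ranged from 13 to 21, against 16. The ratio was above 0 at 29 or 30 of the 30 members from Pcdha1 to Pcdhb16, likewise a range chosen after the values were seen, under every setting. It was below 0 at 17 of the 22 members from Pcdhb20 to Pcdhga12 in the main values, a range whose ends were chosen by those values, but at 12 in cells with 3000 to 10000 in-peak fragments, at 15 under each of the 3 other scalings and with a pseudocount of 5 fragments, and at most at 18. Pcdhgc5, at 0.66 in the main values, reversed to -0.49 in those shallower cells and moved to 3.54 with the density 1 to 3 kb away subtracted, so its side of 0 is not settled. Pcdhga2 changed sign under 1 of 15 settings (0.12 at the highest), and the other 17 named members kept their direction. The share of cells with a Pcdhg fragment, aged over young, was 1.02 thinned to 3000 fragments and 1.03 without thinning, against 0.939. The causes were not tested. No paired analysis was possible because each age has 1 library, and no replicate could be left out. Depth limits single members: at 20 fragments in all, an interval spans several fold.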
